A study of Mus musculus with 72 samples.

Results

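Senescence and the p53 response were followed through 10 genes, chosen by name for their textbook roles, without a threshold on measured values but with earlier results of these data known, out of the 55401 genes in the expression tables. They were *Trp53*, which encodes p53, and its inhibitor *Mdm2*; the cyclin-dependent kinase inhibitors *Cdkn1a* (p21), *Cdkn2a* (p16 and p19ARF) and *Cdkn2b* (p15); the p53 targets *Ccng1*, *Trp53inp1* and *Eda2r*; the secreted stress protein *Gdf15*; and *Lmnb1*, the lamin B1 gene. The mice were males. Wild-type (WT) littermates were compared with mice lacking *Bmal1* (*Arntl*), the core clock activator, in the whole body (KO), and with KO mice given, as pups, an adeno-associated virus (AAV9) that carried HA-tagged *Bmal1* under the muscle CK6 promoter (KO+AAV). In KO+AAV mice every tissue outside the reach of the vector, and every muscle cell it did not transduce, still lacked the gene, and the promoter drives the transgene at all hours. Gastrocnemius was collected at ZT1, soon after lights on, at 10 weeks from 6 WT, 6 KO and 7 KO+AAV mice and at 40 weeks from 5 mice of each group. A separate experiment at 10 weeks compared 3 KO mice that received AAV9-CK6-GFP (KO+GFP) with 3 KO control mice, all of them without *Bmal1*. Lung, heart, liver and white fat were taken from 4 KO and 4 KO+AAV mice at 40 weeks, with no WT mice in those tissues.

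p53 is a transcription factor that is held at a low level by MDM2, the ubiquitin ligase that marks it for degradation, and is released upon DNA damage and other stress. Its targets then stop the cell cycle through p21, restrain p53 again through MDM2 and the cyclin G1-bound phosphatase, or favour cell death. Senescent cells combine a lasting arrest, held by p21 and by the *Cdkn2a* and *Cdkn2b* products, with a fall in lamin B1 and the secretion of inflammatory and growth factors. In muscle fibers, which no longer divide, p21 is also raised by denervation and atrophy, and EDA2R, a receptor of the tumor necrosis factor family, has been tied to muscle loss.

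Read totals on genes ranged from 6754312 to 50755829 across the 72 libraries. Gastrocnemius libraries held 71004 to 187210 rpm (reads scaled to a common library depth) on a list of muscle fiber genes. *Arntl*, the targeted gene, was lower in KO than WT gastrocnemius at 10 weeks (log2 difference -1.14, limma adjusted *P* = 6.59e-05), but at 40 weeks the 5 libraries labelled KO gave 308, 312, 381, 395 and 1039 normalized counts against 480 to 608 in WT, so that the library labelled KO replicate 2 lay above every WT library. Gene-level counts also cover exons outside a deletion, and whether reads from the vector were counted as *Arntl* was not stated. KO+AAV did not exceed KO in gastrocnemius *Arntl* (-0.06 at 10 weeks and -0.48 at 40 weeks). Several libraries stood apart. At 40 weeks the libraries numbered 2 held 5730 rpm (KO) and 4615 rpm (KO+AAV) on denervation genes against at most 1094 rpm in the other KO and KO+AAV libraries. At 10 weeks KO+AAV replicate 4 held 6490 rpm of fibroblast genes (others at most 1726) and replicate 5 held 574 rpm of macrophage genes (others at most 188). Heart KO replicate 2 held 33496 rpm of hepatocyte genes (other heart KO libraries at most 18.3), and white fat KO replicate 2 held 35402 rpm of epididymis genes (others at most 27.8). The members' calls that these libraries decide are given with and without them. The 10-week gastrocnemius libraries of WT, KO and KO+AAV mice were sequenced at 2 sites (ICBR and Novogene), and those of 40 weeks at Novogene alone. Site was a term in the gastrocnemius model. All lung, heart, liver and white fat libraries came from ICBR, and those of the GFP experiment from Novogene.

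The promoters of 5 members are shown because these genes share the p53 pathway yet differed in how they moved in muscle. *Cdkn1a*, *Mdm2*, *Eda2r* and *Trp53* each passed the main test in at least 1 gastrocnemius comparison. *Ccng1*, a p53 target, passed it in none, although it did under some alternatives given below. Sequences are from RefSeq (GRCm38.p6), 250 bases before to 50 bases after the annotated start, written 5′ to 3′ on the gene's strand, and capitals mark a match to the consensus p53 decamer or the E-box CACGTG, the element bound by BMAL1 with CLOCK. *Cdkn1a* is at chr17:29090729-29091028 (+), *Mdm2* at chr10:117710709-117711008 (-), *Ccng1* at chr11:40755237-40755536 (-), *Trp53* at chr11:69580109-69580408 (+) and *Eda2r* at chrX:97377160-97377459 (-).
Cdkn1a: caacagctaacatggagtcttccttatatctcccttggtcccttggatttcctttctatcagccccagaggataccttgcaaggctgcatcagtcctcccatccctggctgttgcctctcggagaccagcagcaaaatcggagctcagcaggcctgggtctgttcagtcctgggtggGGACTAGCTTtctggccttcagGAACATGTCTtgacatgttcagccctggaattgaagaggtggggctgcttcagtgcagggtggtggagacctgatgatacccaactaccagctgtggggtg
Mdm2: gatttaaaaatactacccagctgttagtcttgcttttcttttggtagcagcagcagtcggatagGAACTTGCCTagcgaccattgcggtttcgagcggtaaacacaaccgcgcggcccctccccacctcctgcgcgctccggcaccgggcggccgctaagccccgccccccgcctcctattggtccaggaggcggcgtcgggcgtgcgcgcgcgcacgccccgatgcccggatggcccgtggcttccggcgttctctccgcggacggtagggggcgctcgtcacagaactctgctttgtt
Ccng1: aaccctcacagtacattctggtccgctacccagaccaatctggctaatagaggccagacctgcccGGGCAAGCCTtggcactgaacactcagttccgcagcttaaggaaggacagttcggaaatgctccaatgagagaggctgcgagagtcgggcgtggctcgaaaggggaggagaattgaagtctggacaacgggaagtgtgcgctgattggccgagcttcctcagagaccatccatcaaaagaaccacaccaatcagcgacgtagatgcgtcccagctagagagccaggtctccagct
Trp53: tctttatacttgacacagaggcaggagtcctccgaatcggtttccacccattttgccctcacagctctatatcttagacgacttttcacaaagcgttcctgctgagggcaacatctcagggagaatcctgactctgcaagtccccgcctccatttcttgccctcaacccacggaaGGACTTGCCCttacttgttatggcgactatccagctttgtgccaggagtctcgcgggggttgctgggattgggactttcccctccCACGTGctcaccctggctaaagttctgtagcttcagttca
Eda2r: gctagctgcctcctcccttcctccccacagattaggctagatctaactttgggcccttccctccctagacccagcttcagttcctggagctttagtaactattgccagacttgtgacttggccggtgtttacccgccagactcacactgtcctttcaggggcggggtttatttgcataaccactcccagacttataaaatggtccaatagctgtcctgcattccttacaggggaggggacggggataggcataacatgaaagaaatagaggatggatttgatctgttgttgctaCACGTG

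At the start shown, *Cdkn1a* held 2 p53 decamers, at -73 and -51 relative to that start, and 0 at its other annotated start. *Mdm2*, *Ccng1* and *Trp53* held 1 each, at -186, -185 and -75. *Trp53* and *Eda2r* each held an E-box, at 10 and 44. Both strands were searched, and 8.4% of the 32851 promoters in the RefSeq table held the decamer and 7.2% the E-box. Promoters of 8 of the 10 members were matched. For *Cdkn1a* the first of its 2 annotated starts is shown, since the other held no decamer. That start was picked for its decamers, so their number cannot be set against the other genes or the share of all promoters. A match describes letters in this window and not binding, and a missing match says nothing about sites elsewhere.

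The first question was whether loss of *Bmal1* moved these genes in young adult muscle. At 10 weeks *Cdkn1a* and *Trp53* were higher in KO than in WT gastrocnemius, with no overlap between the groups, and *Eda2r* was higher with overlap. *Cdkn1a* showed the widest difference of the members tested, and *Mdm2*, *Ccng1*, *Trp53inp1*, *Cdkn2b* and *Lmnb1* did not pass the test at *P* under 0.01. In whole muscle, fewer cells of a type and less RNA per cell cannot be told apart.

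*Trp53* gave a lowest, median and highest value of 182, 207 and 271 normalized counts in WT and of 298, 326 and 377 in KO. Every KO library lay above every WT library. The difference was 0.65 on the log2(value + 1) scale (SE 0.17, 1.57-fold, limma adjusted *P* = 0.0148), and it was 0.51 within the libraries of 1 site (ICBR) and 0.78 within those of the other (Novogene). Its inhibitor *Mdm2* ranged from 897 to 1282 in WT and from 907 to 1163 in KO, so the groups overlapped almost completely (log2 difference -0.07).

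*Cdkn1a*, whose product p21 binds and blocks cyclin-dependent kinases, gave a lowest, median and highest value of 148, 256 and 729 normalized counts in WT and of 1395, 1889 and 2880.1 in KO. The lowest KO library, at 1395, was well above the highest WT library, at 729. The log2 difference was 2.78 (SE 0.36, 95% interval 2.03 to 3.52, 6.85-fold, limma adjusted *P* = 2.32e-06), and 2.97 and 2.58 within the sites. The gene shares 273 exon bases, 7.68% of its exon length, with AC167363.2 on the opposite strand, and the strand setting of the counting was not stated, so reads from that stretch cannot be assigned to either. *Cdkn2b*, which encodes an inhibitor of CDK4 and CDK6, was low in every group, with 10.6 to 29.8 in WT and 10.8 to 20.4 in KO.

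*Eda2r*, the receptor for the A2 form of ectodysplasin, gave 198, 311 and 487 (lowest, median, highest) in WT and 450, 464 and 702 in KO. The ranges overlapped through 1 WT library at 487. The KO-WT difference of 0.82 (SE 0.27, limma adjusted *P* = 0.0569) passed at an unadjusted *P* under 0.01 but not after adjustment, and within the Novogene libraries alone it was 0.57 and did not pass. Of the other p53 targets, *Ccng1*, which encodes cyclin G1, had medians of 17580.0 in WT and 15532 in KO. *Trp53inp1*, whose product takes part in p53-dependent death and autophagy, had medians of 195 and 268 (log2 difference 0.43, adjusted *P* = 0.598). For *Trp53inp1*, 5 KO libraries lay above every WT library. With the 2 groups fitted alone it passed the limma test (0.43, unadjusted *P* = 0.00373).

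*Lmnb1*, which encodes the inner nuclear membrane scaffold lamin B1, had medians of 130.1 in WT and 111 in KO (log2 difference -0.22). *Cdkn2a* and *Gdf15* were too low in gastrocnemius to be tested: *Cdkn2a* had between 0 and 3 reads in each library of all 3 groups and both ages, and *Gdf15* stayed at or below 6.28 normalized counts in WT and KO libraries at 10 weeks. In all, 3 of the 8 members tested were higher and 0 were lower in KO, beside 5.15% of all 16199 genes tested that were higher and 5.70% that were lower, and 2 of 8 members did not overlap between groups, beside 6.06% of all genes.

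**Figure D1:**
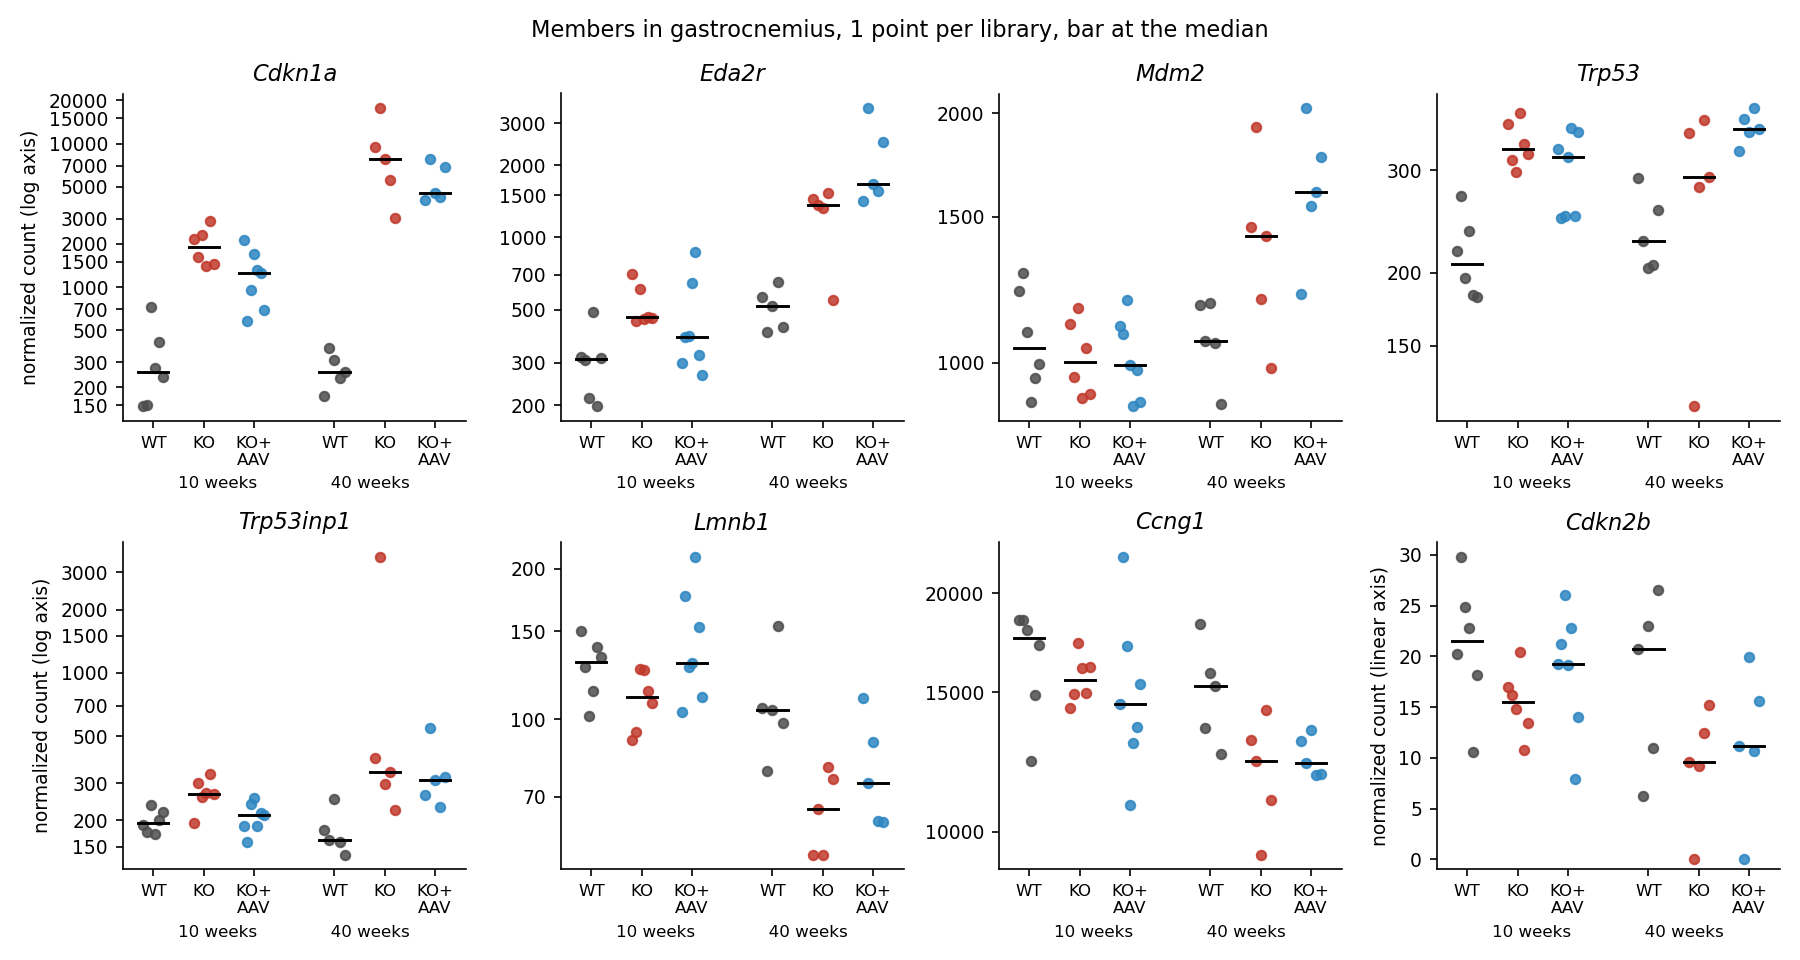
Normalized counts of the 8 members tested in gastrocnemius, 1 panel per gene (log axes, except *Cdkn2b*, which is linear), with 1 point per library and a bar at the group median, for WT, KO and KO+AAV at 10 and 40 weeks. *Cdkn1a* medians step up from 256 in WT to 1889 in KO at 10 weeks, and at 40 weeks no KO or KO+AAV library is below 3010.5 while no WT library is above 379.

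At 40 weeks more members differed, and the difference in *Cdkn1a* was larger. *Cdkn1a*, *Eda2r*, *Trp53inp1* and *Mdm2* were higher in KO than in WT gastrocnemius, and *Lmnb1* was lower, while *Trp53* itself did not pass the test. Of the 8 members tested, 4 were higher and 1 lower, beside 10.9% and 11.5% of all genes in these directions. Only *Cdkn1a* did not overlap between the groups, beside 13.6% of all genes.

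*Cdkn1a* gave 175, 379, 312, 231 and 255 normalized counts in WT and 9429, 17567, 7834, 5605 and 3010.5 in the KO libraries. Every KO library was far above every WT library and the KO libraries were spread more widely than the WT libraries. The log2 difference was 4.81 (SE 0.40, 95% interval 4.0 to 5.63, 28.2-fold, limma adjusted *P* = 1.63e-10), and 4.5 without the KO and KO+AAV libraries numbered 2. The KO-WT difference was larger at 40 than at 10 weeks by 2.04 (SE 0.54, adjusted *P* = 0.0887), beside 4.47% of all genes for which this difference between ages was called.

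*Eda2r* gave 565, 405, 519, 652 and 425 in WT and 1444, 1366, 1324, 1528 and 550.2 in KO. The first 4 KO libraries lay above all WT libraries, and the fifth lay within the WT range. *Eda2r* differed by 1.21 on the log2 scale (SE 0.29, 2.31-fold, adjusted *P* = 0.00296) and 1.16 without the libraries numbered 2. 

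*Trp53inp1* gave 179, 162, 253, 158 and 138 in WT and 395, 3555, 297, 337 and 223 in KO. The KO library at 3555 was replicate 2, the library with high denervation genes and high *Arntl*, and the lowest KO library fell within the WT range. The log2 difference of 1.52 (SE 0.40, adjusted *P* = 0.00571) became 0.81 (adjusted *P* = 0.000787) without the libraries numbered 2. *Mdm2* gave 1173, 1061, 1179, 1056 and 891 in WT and 1457, 1923, 1192, 1421 and 986 in KO, with the highest value again in replicate 2. Its log2 difference was 0.35 (SE 0.12, adjusted *P* = 0.0388), and without the libraries numbered 2 it was 0.23 (adjusted *P* = 0.133). The call was kept in 6 of 10 alternatives and in 4 of 10 fits that each left out 1 library, being lost without KO replicate 1, 2 or 4 or WT replicate 2, 4 or 5, with no site term, with Novogene libraries alone and with the 2 groups alone.

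*Trp53* gave 291, 227, 204, 206 and 256 in WT and 348, 118, 281, 366 and 292 in KO. Replicate 2, the highest KO library for *Mdm2* and *Trp53inp1*, was the lowest for *Trp53*. KO and WT differed by 0.16 (adjusted *P* = 0.59) with all libraries and by 0.44 (adjusted *P* = 0.0149) without those numbered 2. The call at 40 weeks is therefore gained when these libraries are left out. Reads of *Trp53* and of its pseudogene *Trp53-ps* may not be separable.

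*Lmnb1* gave 105, 79.0, 104, 153 and 98.5 in WT and 53.6, 66.3, 53.6, 80.3 and 75.8 in KO. A single KO library, at 80.3, exceeded the lowest WT library at 79.0. KO minus WT was -0.69 on the log2 scale (SE 0.19, 0.620-fold, adjusted *P* = 0.00704) and -0.70 without the libraries numbered 2. Summed markers of other cell types also differed at this age: fibroblast genes took 1095 to 1529 rpm in WT and 212 to 746 rpm in KO, and T and B cell genes 86.4 to 136.8 rpm in WT and 12.7 to 82.0 rpm in KO. The part of these cells in the *Lmnb1* values was not tested.

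*Ccng1* went the other way from the p53 targets above in its values, with 12544 to 18297 in WT and 9354 to 14253 in KO. It did not pass the test (log2 difference -0.34, adjusted *P* = 0.0742). It did pass with Novogene libraries alone (-0.34) and without WT replicate 5 or KO replicate 4 (-0.40 in each). *Cdkn2b* gave 20.8, 6.27, 23.0, 10.9 and 26.6 in WT and 9.63, 0, 9.20, 12.5 and 15.2 in KO (adjusted *P* = 0.185), with replicate 2 at 0. *Gdf15* reached 14.3 in 1 KO library and at most 3.54 in WT, and *Cdkn2a* stayed at 0 to 3 reads.

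The second question was whether muscle expression of *Bmal1* in KO mice moved these genes back toward WT. In the direct comparison of KO+AAV with KO gastrocnemius, 0 of 8 members passed the limma test at *P* under 0.01 at either age, beside 2.63% of all genes at 10 weeks and 3.25% at 40 weeks. At an unadjusted *P* under 0.05, 2 members differed at 10 weeks, *Cdkn1a* and *Lmnb1*, which ranked 1235 and 956 by limma *P* among 16199 genes. At 40 weeks 2 differed, *Trp53* and *Eda2r*, which ranked 1071 and 611. With edgeR and DESeq2 on recovered reads, 0 members passed at 10 weeks, and 1 and 2 at 40 weeks. The share of all genes was not counted for these 2 tests or for *P* under 0.05.

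*Cdkn1a* in KO+AAV at 10 weeks had a lowest, median and highest value of 583, 1255 and 2136, which overlapped the KO range of 1395 to 2880.1 and, through 1 WT library at 729, the WT range. The log2 difference from KO was -0.75 (SE 0.35, 95% interval -1.47 to -0.04, adjusted *P* = 0.523), and -0.75 and -0.78 within the sites. The interval runs from a large fall to almost no difference. At 40 weeks the KO+AAV libraries gave 4015, 7844, 4548, 4225 and 6882, all inside the KO range of 3010.5 to 17567 (log2 difference -0.48, adjusted *P* = 0.743). Against WT, KO+AAV remained higher by 2.02 at 10 weeks (adjusted *P* = 0.000328) and 4.34 at 40 weeks (adjusted *P* = 4.6e-09). These comparisons share the WT or KO libraries with those above and are not independent of them.

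*Eda2r* in KO+AAV at 10 weeks had a lowest, median and highest value of 266, 386 and 871, overlapping both other groups, and its 2 highest libraries, at 644 and 871, were replicates 4 and 5 with high fibroblast and macrophage genes. The log2 difference from KO was -0.31 with all libraries and -0.66 (adjusted *P* = 0.622) without these. At 40 weeks the KO+AAV libraries gave 1425, 3453, 1672, 1567 and 2501.3. Of these, 4 were above the highest KO library at 1528 (log2 difference 0.77, SE 0.29, adjusted *P* = 0.347), and without the libraries numbered 2 the difference was 0.63 (adjusted *P* = 0.607). The KO+AAV-KO difference moved up between ages by 1.09 (SE 0.39, adjusted *P* = 0.895, unadjusted *P* under 0.01), beside 1.08% of all genes called for this difference. This call was kept in 3 of 9 alternatives and in 10 of 23 fits that each left out 1 library. It did not pass with edgeR (0.98), DESeq2 (0.98) or without the libraries numbered 2 (0.94).

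*Trp53* in KO+AAV at 10 weeks had a lowest, median and highest value of 249, 316 and 355, between and overlapping the other groups. At 40 weeks it gave 324, 368, 348, 383 and 354, all above the WT maximum of 291. The difference from KO at 40 weeks was 0.44 (adjusted *P* = 0.427) and 0.14 without the libraries numbered 2. *Mdm2* at 40 weeks gave 1211, 2028, 1544, 1607 and 1773 in KO+AAV, again all above WT, with a difference from KO of 0.24 (adjusted *P* = 0.536). Without KO replicate 2 alone this *Mdm2* difference was 0.37 and passed the limma test (unadjusted *P* = 0.00337).

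*Trp53inp1* gave 265, 546, 312, 230.4 and 322 in KO+AAV at 40 weeks, within the KO range (log2 difference -0.65, adjusted *P* = 0.618). The edgeR and DESeq2 tests put it at -1.52 (adjusted *P* = 0.214 and 0.12, both past the unadjusted threshold), with KO replicate 2 at 3555 in the KO mean that these models fit. *Lmnb1* gave 110, 74.4, 89.8, 62.6 and 62.3 in KO+AAV at 40 weeks (log2 difference from KO 0.26), and at 10 weeks its difference from KO was 0.38 (adjusted *P* = 0.496). *Ccng1* and *Cdkn2b* differed from KO by at most 0.21 in size on the log2 scale at both ages.

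Against WT, 2 of 8 members were higher in KO+AAV at 10 weeks (*Cdkn1a*, and *Trp53* by 0.48 with adjusted *P* = 0.092) and 0 were lower, beside 4.02% of all genes higher. The *Trp53* call did not pass without KO+AAV replicates 4 and 5 (0.41), within either site (0.32 and 0.66) or with the replicate block (0.46). At 40 weeks 4 were higher, beside 7.45%, and these 4 (*Cdkn1a*, *Eda2r*, *Mdm2* and *Trp53*) also did not overlap with WT, beside 11.7% of all genes. The 40-week differences from WT were 1.99 for *Eda2r* (adjusted *P* = 1.80e-05), 0.59 for *Mdm2* (adjusted *P* = 0.00145) and 0.59 for *Trp53* (adjusted *P* = 0.0344). *Trp53inp1* (0.87, adjusted *P* = 0.159) and *Lmnb1* (-0.43, adjusted *P* = 0.131) did not pass, although without the libraries numbered 2 *Trp53inp1* did (0.68, adjusted *P* = 0.00637).

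**Figure D2:**
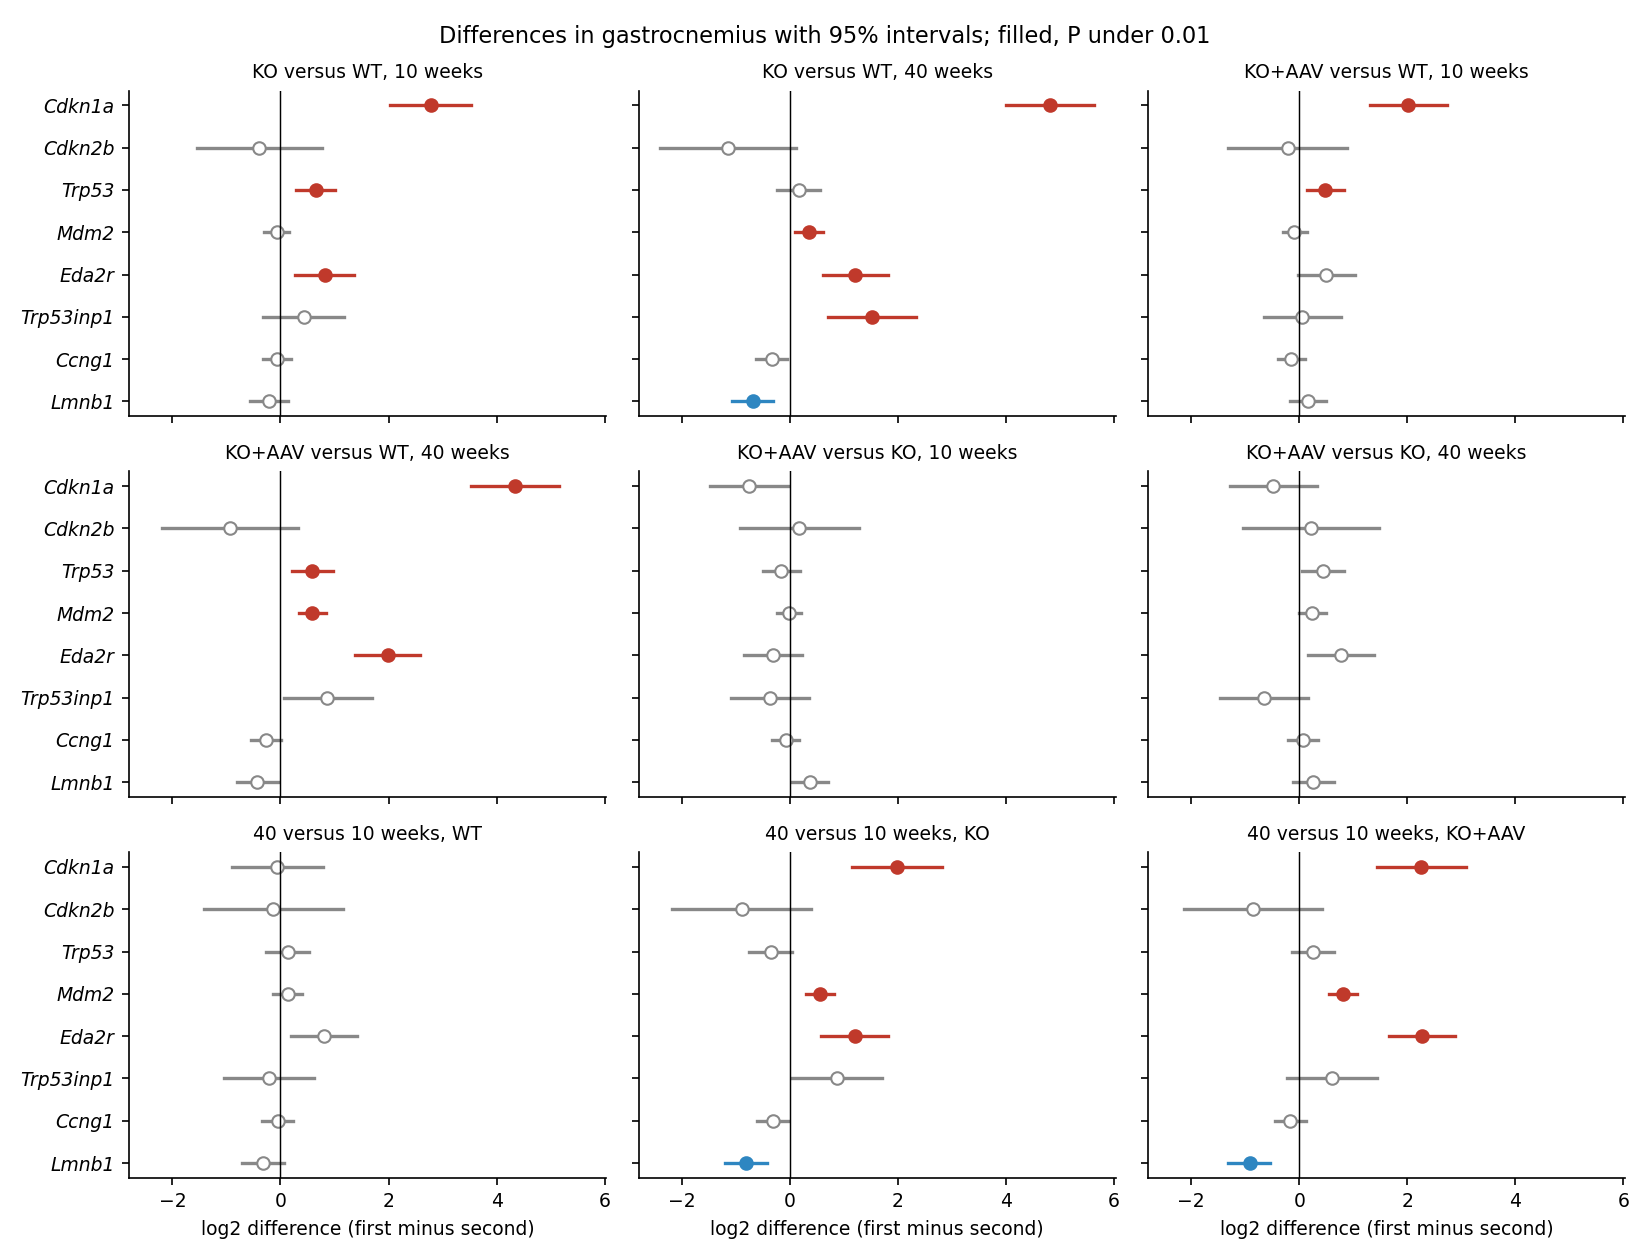
Log2 differences of the 8 members in 9 gastrocnemius comparisons, with 95% intervals as lines, filled symbols for *P* under 0.01, red for higher and blue for lower. The KO+AAV versus KO panels hold no filled symbol, while *Cdkn1a* lies at 2.78 and 4.81 in KO versus WT and at 2.02 and 4.34 in KO+AAV versus WT.

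The third question was how the members moved between 10 and 40 weeks within a genotype. The comparison is limited by sequencing site: 40-week gastrocnemius libraries came from 1 site only, so the site term rests on the 10-week libraries. In WT, 0 of 8 members passed the test by limma, beside 2.27% of all genes, and likewise 0 by edgeR and DESeq2. *Eda2r* was the 1 member with an unadjusted *P* under 0.05, ranking 430 by limma *P* among 16199 genes. Its values were 198 to 487 at 10 weeks and 405 to 652 at 40 weeks (log2 difference 0.80, adjusted *P* = 0.466). WT *Cdkn1a* spanned 148 to 729 at 10 weeks and 175 to 379 at 40 weeks.

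In KO, *Cdkn1a*, *Eda2r* and *Mdm2* were higher at 40 than at 10 weeks and *Lmnb1* was lower, which is 3 and 1 of 8 members beside 5.82% and 6.28% of all genes. *Cdkn1a* went from 1395 to 2880.1 at 10 weeks to 3010.5 to 17567 at 40 weeks without overlap (log2 difference 1.98, adjusted *P* = 0.00377). *Lmnb1* went from 90.8 to 126 down to 53.6 to 80.3, also without overlap (-0.81, adjusted *P* = 0.0103). *Ccng1* did not overlap either but did not pass the test (-0.32), so 3 of 8 members did not overlap beside 4.94% of all genes. With no site term (-0.40) or Novogene libraries alone (-0.41) *Ccng1* did pass. *Eda2r* differed by 1.20 (adjusted *P* = 0.0152) and *Mdm2* by 0.55 (adjusted *P* = 0.00884). *Mdm2* was the 1 member that differed between sites at an adjusted *P* under 0.05 (Novogene minus ICBR -0.25, limma adjusted *P* = 0.0432), and its age call in KO was lost with the 2 groups fitted alone. T and B cell genes in KO went from 88.2 to 152 rpm at 10 weeks to 12.7 to 82.0 rpm at 40 weeks, without overlap, and their part in the *Lmnb1* fall was not tested.

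In KO+AAV the same 4 members passed in the same directions, beside 6.43% of all genes higher and 5.66% lower. *Eda2r* moved from 266 to 871 at 10 weeks up to 1425 to 3453 at 40 weeks without overlap (log2 difference 2.28, 4.86-fold, adjusted *P* = 1.24e-05). *Cdkn1a* (2.26, adjusted *P* = 0.000557) and *Mdm2* (0.81, adjusted *P* = 0.00011) did not overlap between ages either, so 3 of 8 members did not, beside 5.88% of all genes, whereas *Lmnb1* overlapped (-0.92, adjusted *P* = 0.00214). In these libraries fibroblast genes went from 1139 to 6490 rpm at 10 weeks to 256 to 971 rpm at 40 weeks, without overlap, and their part was not tested. The difference between KO+AAV and WT itself grew with age for *Cdkn1a* (2.31, adjusted *P* = 0.0300), *Mdm2* (0.68, adjusted *P* = 0.0439) and *Eda2r* (1.48, adjusted *P* = 0.0775), beside 4.12% of all genes called for this difference. *Trp53* did not pass the test between ages in any genotype.

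The vector itself was examined in the separate experiment with GFP. *Cdkn1a* gave 1247, 702 and 943 in KO+GFP and 587, 1113 and 1146 in KO control libraries, fully overlapping (log2 difference 0.05, 95% interval -0.48 to 0.57). *Eda2r* gave 97.9, 212 and 168 in KO+GFP and 222, 291 and 639 in the controls, and all KO+GFP libraries were below all controls. It was the 1 member of 8 that passed, lower by -1.18 (SE 0.34, adjusted *P* = 0.0819), beside 3.88% of all genes lower. The call did not pass with DESeq2 (-1.27), without control replicate 3, the library at 639 (-0.74), or without KO+GFP replicate 1. *Eda2r*, *Mdm2* and *Trp53inp1* did not overlap between the groups, beside 23.5% of all genes in these groups of 3.

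*Mdm2* gave 420, 385 and 410 in KO+GFP and 428, 494 and 530 in the controls (log2 difference -0.25, adjusted *P* = 0.203), and *Trp53inp1* gave 96.8, 71.9 and 85.5 against 129, 105 and 105 (-0.41, adjusted *P* = 0.19). *Trp53* differed by -0.28, *Lmnb1* by -0.18, *Cdkn2b* by -0.05 and *Ccng1* by 0.02. Markers of other cells moved with these groups: T and B cell genes took 50.1 to 69.7 rpm in KO+GFP and 163 to 187 rpm in controls, Schwann cell genes 37.5 to 49.8 and 91.0 to 126 rpm, and macrophage genes 86.6 to 134.8 and 34.8 to 51.4 rpm. Slow fiber genes took 1583 to 2063 rpm in KO+GFP and 158 to 1016 rpm in controls (median log2 difference of the list 3.01). Fibroblast genes took 1231 to 1983 and 662 to 1139 rpm. The part of these cells and fibers in the *Eda2r* difference was not tested. Normalized counts of this experiment come from a separate table, and only lengths and depths, not size factors, make its levels comparable with the other libraries: mean *Cdkn1a* was 36.8 RPKM (reads per kilobase of exon, scaled to library depth) in KO+GFP and 34.1 in control, against 33.7 in KO and 5.59 in WT of the main experiment at 10 weeks.

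Outside muscle the question was whether KO and KO+AAV mice differed at 40 weeks in tissues where the transgene was not meant to act. Normalized counts of *Arntl*, which is not a member, were 781 to 1231 in KO+AAV liver against 584 to 679 in KO. The log2 difference was 0.58 (limma adjusted *P* = 0.997, past the unadjusted threshold), against 0.32 in heart, 0.13 in lung and -0.01 in white fat. The paper reports more vector copies in liver and heart than in tibialis anterior muscle, but detected no transgene protein in liver or heart. The source of the liver difference was not tested. At *P* under 0.01 by limma, 0 of 10 members passed in lung, heart, liver or white fat, beside 3.96%, 0.0829%, 0.546% and 0.0711% of all genes. At an unadjusted *P* under 0.05, 2 members differed in lung, 0 in heart, 1 in liver and 1 in white fat. By limma *P*, *Ccng1* and *Cdkn2b* ranked 1937 and 2380 among 21072 genes in lung. *Trp53inp1* ranked 546 among 16656 in liver, and *Cdkn1a* 90 among 21092 in white fat. The edgeR test called 0 in each tissue while DESeq2 called 1, in liver. The share of all genes was not counted for these 2 tests or for *P* under 0.05. With 4 libraries a group, these tests detect only differences that are large against the spread.

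In white fat *Cdkn1a* gave 6717, 2663, 6902 and 7015 in KO and 8164, 8725, 10663 and 12136 in KO+AAV. All KO+AAV libraries were above all KO libraries, 1 of 10 members beside 1.31% of all genes without overlap in this tissue. The log2 difference was 0.85 (SE 0.33, adjusted *P* = 0.907), and 0.51 without KO replicate 2, the library with epididymis genes. In liver *Cdkn1a* gave 2441, 2203, 1741 and 2124 in KO and 1974, 3800.3, 1655 and 3914 in KO+AAV, and in lung 9843, 7491, 6028 and 5892 in KO and 5714, 12652, 6827 and 14466 in KO+AAV, each with a wider spread in KO+AAV than in KO. Heart *Cdkn1a* ranged from 4836 to 10914 in KO and from 5289 to 9599 in KO+AAV.

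*Trp53inp1* in liver gave 2412, 2416, 3590.1 and 1788 in KO and 5168, 1964, 4942 and 6997 in KO+AAV. Of the KO+AAV libraries, 3 exceeded all KO libraries and the other lay among them (log2 difference 0.81, adjusted *P* = 0.997), and without KO+AAV replicate 2 the difference was 1.19 and passed at an unadjusted *P* under 0.01. In heart it gave 508, 2614, 385 and 431 in KO and 451, 467, 439 and 419 in KO+AAV, so that the apparent difference of -0.63 became 0.02 without KO replicate 2, the library with hepatocyte genes. The same library gave the highest heart KO values of *Lmnb1* (329), *Trp53* (859) and *Gdf15* (169.7), and without it the differences of these genes moved to -0.11, -0.13 and -0.05.

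*Ccng1* in lung gave 4670, 4110, 4208 and 5238 in KO and 6069, 4263, 6521 and 7365 in KO+AAV (log2 difference 0.39, adjusted *P* = 0.38), and *Cdkn2b* in lung 1838, 1335, 1180 and 1263 in KO and 1230, 1135, 1119 and 786 in KO+AAV (-0.39, adjusted *P* = 0.408). Both pairs of groups overlapped. In the same lung libraries, cardiomyocyte genes took 106 to 1092 rpm in KO and 1628 to 5539 rpm in KO+AAV, and slow muscle fiber genes 298 to 738 and 839 to 2429 rpm. *Ccng1* was a highly expressed heart gene in these data, and the part of such tissue in the lung values was not tested.

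*Gdf15*, a secreted stress signal that acts on a receptor in the hindbrain, gave 93.2, 102, 262 and 97.0 in liver KO and 631, 94.0, 116 and 144 in liver KO+AAV, so a single library set the upper end in each group. *Eda2r* was near its floor in liver (6.91 to 44.6) and gave 35.0 to 95.1 in heart KO and 70.7 to 129.8 in heart KO+AAV. *Cdkn2a* was countable outside muscle, from 4.09 to 21.7 in liver, 7.67 to 24.0 in heart, 8.35 to 34.6 in white fat and 19.7 to 49.4 in lung, with overlap between KO and KO+AAV in each tissue. Gene-level counts cannot separate its p16 and p19ARF transcripts.

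**Figure D3:**
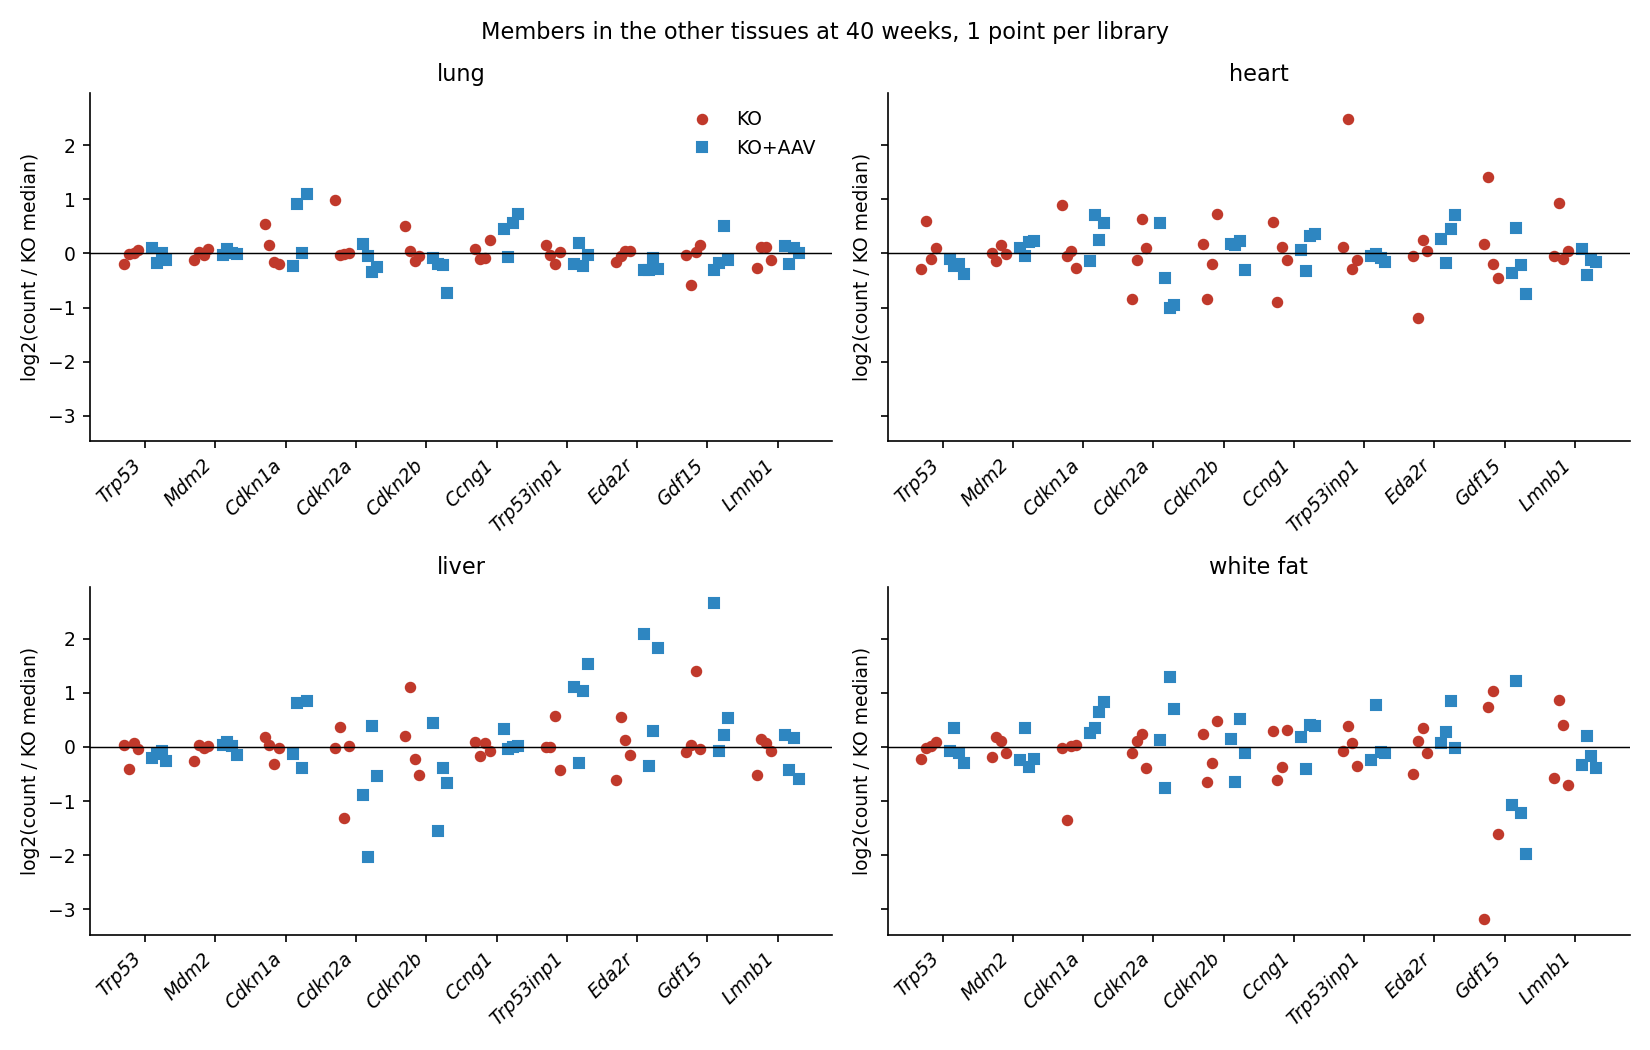
Each library's value of each member relative to the KO median of that tissue, on the log2 scale, for 4 KO (red circles) and 4 KO+AAV (blue squares) libraries in lung, heart, liver and white fat at 40 weeks. The symbols of the groups intermingle for nearly all members, with white fat *Cdkn1a* as the case in which all KO+AAV libraries (8164 to 12136 normalized counts) lie above all KO libraries (2663 to 7015).

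Levels per length were compared between genes and tissues as mean RPKM at 40 weeks. Gastrocnemius libraries of this age came from Novogene and those of the other tissues from ICBR. Tissue and site therefore cannot be told apart where gastrocnemius is set against another tissue. *Ccng1* was the highest member in gastrocnemius, where WT had 258, KO 202 and KO+AAV 220.3, and in heart, with 214 in KO and 232 in KO+AAV. The libraries of these 5 groups overlapped with each other, and all exceeded those of white fat (31.2 to 51.5), lung (26.8 to 46.8) and liver (9.16 to 12.4). *Cdkn1a* at 142 in KO gastrocnemius and 95.8 in KO+AAV compared with 4.6 in WT, so that it moved from the level of *Trp53* (3.53 to 5.45 over the gastrocnemius groups) toward that of *Ccng1*. WT gastrocnemius, at 2.85 to 6.53 by library, was the lowest of all 11 groups, below liver KO (11.9 to 15.8), and KO gastrocnemius (51.2 to 263) overlapped KO+AAV gastrocnemius (67.8 to 129.8), lung KO (38.4 to 60.3) and heart KO (32.1 to 67.7). *Eda2r* was a gastrocnemius gene among these tissues, where WT had 5.22, KO 12.6 and KO+AAV 22.2, against 0.0448 to 0.513 in the means of the other tissues.

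*Mdm2* had mean levels of 7.22 in liver KO, 10.8 in white fat KO, 11.4 in heart KO and 19.3 in lung KO beside 12.7 to 19.9 in the gastrocnemius groups, and the white fat and heart libraries overlapped. *Cdkn2b* was a lung and white fat gene, at 22.9 and 8.56 in KO without overlap between these tissues, and *Trp53inp1* was highest in lung (14.4 in KO) and liver (9.53 in KO and 17.8 in KO+AAV). *Lmnb1* (6.65) and *Trp53* (9.35) were highest in lung KO among KO tissues, with *Lmnb1* libraries at 5.38 to 7.47 in lung above the next tissue, white fat, at 1.39 to 4.75, and *Trp53* overlapping between lung (7.92 to 10.2) and white fat (5.82 to 8.36). *Gdf15* ranged from 0.796 in white fat KO to 1.81 in liver KO, with overlap between all 4 of these tissues, and *Cdkn2a* was highest in lung KO at 0.597. No test was made between tissues, which were normalized separately.

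**Figure D4:**
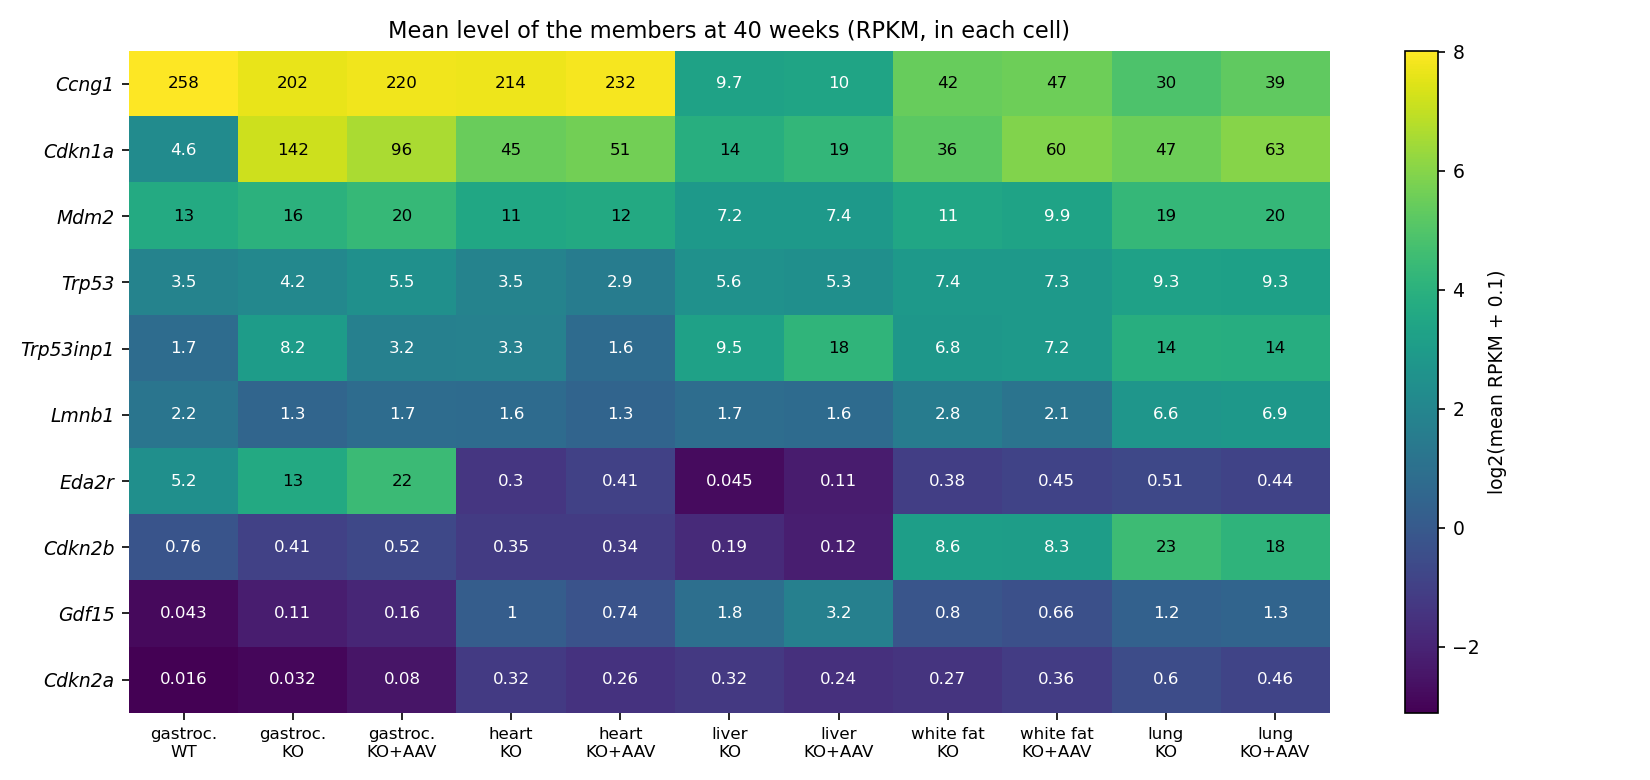
Mean RPKM of all 10 members (rows) in the 11 groups collected at 40 weeks (columns), printed in each cell and colored on a log2 scale. *Ccng1* is brightest in gastrocnemius and heart (202 to 258), *Cdkn1a* goes from 4.6 in WT gastrocnemius to 142 in KO, and *Cdkn2a* and *Gdf15* are darkest in gastrocnemius.

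The rest of the p53 pathway was described with lists of genes from textbook knowledge. Of 32 other p53 targets tested in gastrocnemius, 3 were higher and 2 lower in KO than WT at 10 weeks (median log2 difference 0.11, against 0.01 over all genes), and 6 were higher and 2 lower at 40 weeks (median 0.32). Over all genes 5.15% were higher and 5.70% lower at 10 weeks, and 10.9% and 11.5% at 40 weeks. The KO versus WT counts of every list below are read against these shares. In KO+AAV against KO, 2.63% of all genes at 10 weeks and 3.25% at 40 weeks were called in either direction. Without the libraries numbered 2, the 40-week counts of these targets were 3 and 2 (median 0.25). Higher at 40 weeks were *Gadd45a*, a growth arrest and DNA repair gene (1.92), and *Bbc3*, the pro-death gene known as Puma (1.83), and lower were *Polk*, a translesion polymerase (-1.27), and *Tigar*, a regulator of glycolysis (-1.14). *Bbc3* (1.38) and *Polk* (-1.06) had also passed at 10 weeks in these directions.

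Of 14 p53 regulators, 1 was higher and 3 were lower at 10 weeks, and 2 were higher and 4 lower at 40 weeks, also without the libraries numbered 2. *Trp63*, the p53 family member p63, was higher at both ages (1.0 and 1.24), and the coactivator *Ep300* (-0.53 and -0.69) and the p53 kinase *Hipk2* (-0.54 and -0.83) were lower at both. *Mdm4*, a second p53 inhibitor, passed at 40 weeks (0.71). In KO+AAV against KO, *Hipk2* was lower at 10 weeks (-0.50) and higher at 40 weeks (0.44), and *Trp63* was lower at 10 weeks (-0.67). Of the other p53 targets, 0 were higher and 1 lower in that comparison at 10 weeks (*Rrm2b*, -0.39), and 2 were higher and 0 lower at 40 weeks (*Tigar*, 0.81, and *Phlda3*, 0.63). Neither *Tigar* (0.50) nor *Phlda3* (0.40) passed without the libraries numbered 2, and *Rrm2b* did not pass without KO+AAV replicates 4 and 5 (-0.30).

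Of 16 proliferation genes, 0 passed at 10 weeks in KO versus WT and 3 were higher and 1 lower at 40 weeks, among them the replication licensing genes *Mcm5* (1.91) and *Mcm6* (1.19) and, lower, the mitotic kinase *Aurka* (-1.52). Without the libraries numbered 2 the counts were 2 and 1, and *Mcm6* did not pass. Of 17 CDK and G1 genes, 2 were higher, including *Rb1* (0.80), and 3 lower, including *Cdkn2c* (-0.98), at 40 weeks. Of 12 nuclear envelope genes other than *Lmnb1*, 0 were higher and 2 lower at 10 weeks and 1 was higher and 4 lower at 40 weeks (0 and 4 without the libraries numbered 2). *Tmpo* (-0.64 and -0.70) and *Syne1* (-0.45 and -0.57) were lower at both ages, and *Lbr*, the lamin B receptor, at 40 weeks (-0.49).

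Of 18 secreted factors of the senescence-associated kind, 0 passed at 10 weeks by limma, and 4 were higher and 1 lower at 40 weeks (median 0.47). Without the libraries numbered 2 the counts were 6 and 1, with *Igfbp3* at 0.84 and *Igfbp5* at -1.80. The higher included *Igfbp2* (3.91), *Icam1* (1.36) and *Igfbp3* (1.36), and the lower one was *Igfbp5* (-2.56). Of 8 genes around the EDA2R and GDF15 receptors, 1 was higher and 1 lower at 10 weeks and 3 were higher and 2 lower at 40 weeks, with the same 40-week counts without the libraries numbered 2. *Edar*, the receptor for the A1 form of ectodysplasin, was higher at both ages (1.87, adjusted *P* = 0.0104, and 1.94, adjusted *P* = 0.00706) at low counts, with means of 13.2 in KO and 2.85 in WT at 10 weeks. The noncanonical NF-kB subunit *Nfkb2* (1.02) and its kinase *Map3k14* (0.63), which act downstream of EDA2R, were higher at 40 weeks, while *Ret*, the GDF15 coreceptor, was lower at both ages (-0.70 and -0.95). *Relb*, the partner of *Nfkb2*, was higher in KO+AAV than KO at 40 weeks (0.54, and 0.37 without the libraries numbered 2, where it did not pass) and lower in KO+GFP than KO control (-0.78).

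Of 14 denervation genes, which also mark injured or immature fibers, 2 were higher in KO than WT at 10 weeks (median 0.48) and 9 at 40 weeks (median 1.29), with 0 lower at either age. They included the acetylcholine receptor subunits *Chrna1* (1.32 and 1.55) and *Chrnb1* (1.09 and 1.5) and, at 40 weeks, *Myog* (1.83) and the embryonic myosin *Myh3* (3.82). Without the libraries numbered 2, 8 were higher and 0 lower at 40 weeks (median 1.03), with *Chrna1* at 1.63, *Chrnb1* at 1.56, *Myog* at 1.94 and *Myh3* at 3.59, although the summed list of the other KO libraries (769 to 1038 rpm) overlapped that of WT (644 to 900.4 rpm). These rose in the comparison in which *Cdkn1a* and *Eda2r* rose, and their part in those values was not tested. The receptor gene *Chrna1* was lower in KO+AAV than KO at both ages (-0.60 and -0.64). Of 15 clock genes, 3 were higher and 7 lower in KO than WT at each age, while KO+AAV against KO gave 6 higher and 1 lower at each age.

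**Figure D5:**
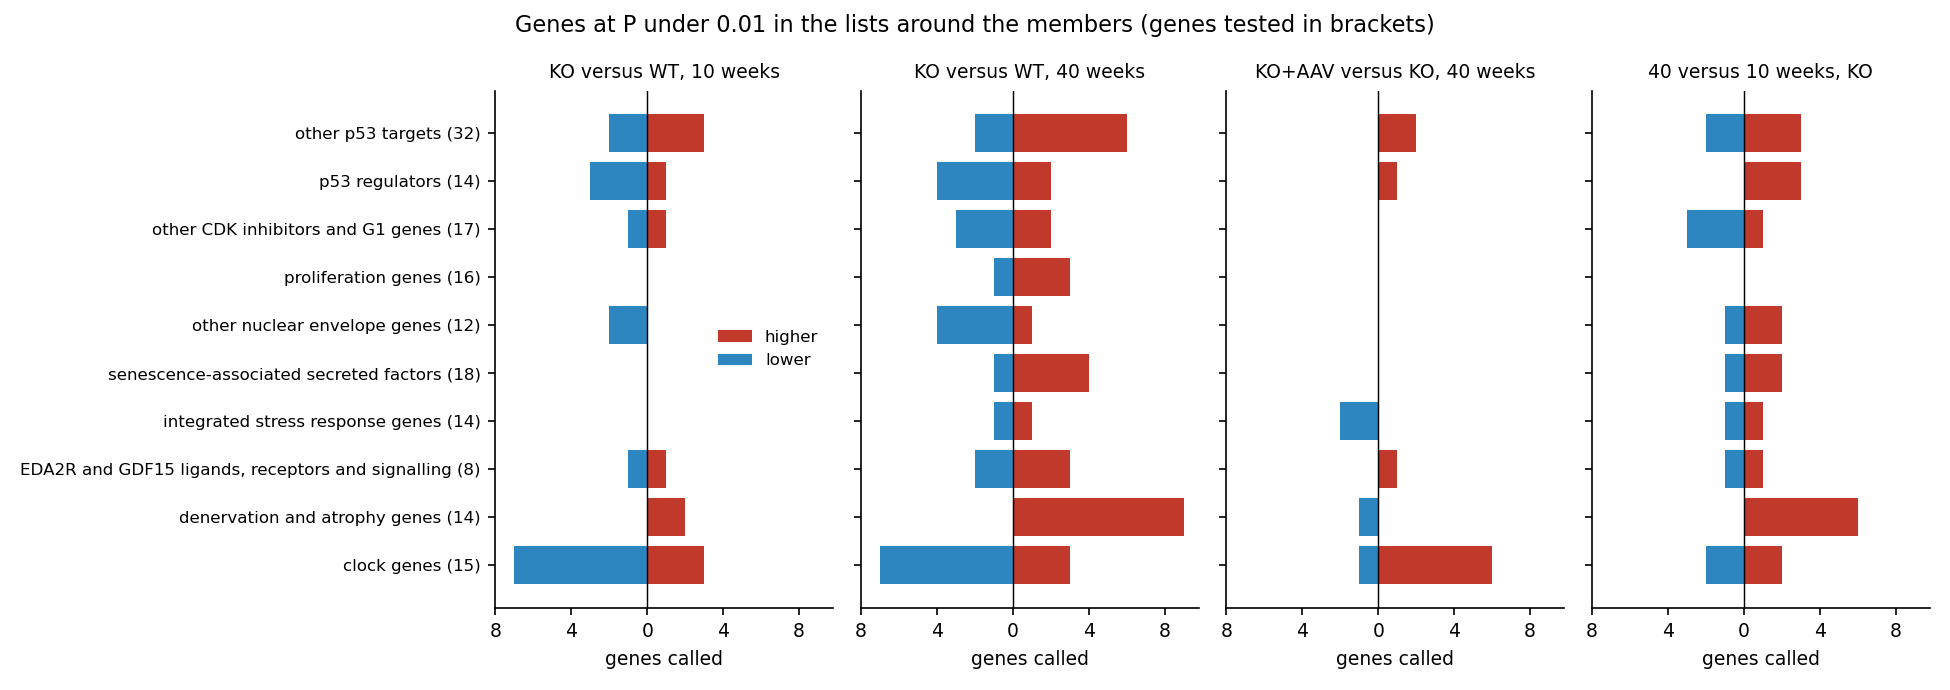
Number of genes called higher (right, red) and lower (left, blue) at *P* under 0.01 in each pathway list, for KO versus WT at 10 and 40 weeks, KO+AAV versus KO at 40 weeks and KO at 40 versus 10 weeks in gastrocnemius. In KO versus WT at 40 weeks, 9 of 14 denervation genes and 6 of 32 other p53 targets are higher, whereas KO+AAV versus KO at 40 weeks gives at most 2 calls in a direction outside the clock list.

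Across the 34 gastrocnemius libraries, the genes whose values were most like each member were listed after the site difference was removed. For *Cdkn1a* these were *Ppfibp2* (Pearson r = 0.954), AC167363.2 (0.941), the transcript that overlaps it, and *Tpra1* (0.924). Within groups, with the group means removed, these values were 0.665, 0.566 and 0.398. For *Eda2r* they were *Tnfrsf23* (0.92, and 0.628 within groups), *Krt18* (0.916) and *Cpne2* (0.905), and for *Trp53* they were *Dll1* (0.821, and 0.837 within groups), *Syt15* (0.768) and *Ptpa* (0.766). *Mdm2* was most like *Aebp2* (0.903, and 0.732 within groups), and *Lmnb1* most like *Tmem97* (0.807, but 0.326 within groups). *Trp53inp1* was most like D230025D16Rik (0.93, and 0.909 within groups). The library labelled KO replicate 2 at 40 weeks enters these values. It was far from its group in *Trp53inp1* (3555, nearest other 395) and the lowest KO library in *Trp53* (118). Likeness without it was not computed. The libraries share group, site and depth, so these values describe likeness only.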

How the data were processed

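RNA-seq of poly(A) RNA gave 72 libraries in 16 groups, assigned from the labels. The deposited values are a signal per gene (normalized counts): HTSeq counts of GRCm38 alignments made by the authors with HISAT2 2.2.1, each divided by its library's DESeq2 size factor. The strand setting was not given in the sources used here. Whole reads were recovered from each library's smallest step for 100% of values, within 0.01 of a read. Separate models were fitted for gastrocnemius (6 groups and a site term), for the GFP experiment and for every other tissue with limma 3.58.1 in R 4.3.3, on log2(value + 1) of genes with a mean above 5, which leaves 16199, 14477, 21072, 18089, 16656 and 21092 genes in gastrocnemius, the GFP experiment, lung, heart, liver and white fat. A fold change is on that scale and understates the change of low genes. A gene was called at *P* under 0.01, as in the study, and Benjamini-Hochberg adjusted *P* over all genes tested is given beside it. The labels name mice by number only, so *P* values measure the spread between these samples. RPKM used recovered reads and exon lengths. edgeR 4.0.16 and DESeq2 1.42.0 on recovered reads, rounded to whole reads, were alternatives, as were the pseudocount, the filter, TMM scaling, site, the replicate block and, where a group compared had 5 libraries or fewer, leaving out each library in turn, so the 10-week comparisons of WT, KO and KO+AAV had no such fits. Leaving out libraries that stand apart was chosen after seeing the data. All 10 members are named, and from each list up to 4 called genes with the lowest *P*. The members and lists were chosen with earlier results of these data known. Scripts were tested on simulated data. Figures used Python 3.11.15 and matplotlib 3.10.9.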

Additional observations from a re-analysis of the deposited data

Results flagged for a closer look

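Among the 10 members, 140 sets of 4 to 7 libraries were examined for a library far from the rest of its group, and 16 (11.4%) held one. The cut-off gives about 1 in 20 for normally distributed values. Normalized counts need not follow that distribution, some sets are mostly zeros and sets share libraries, so the share cannot be compared with that rate. In gastrocnemius these were *Trp53inp1* at 3555 in the library labelled KO replicate 2 at 40 weeks (nearest other 395), *Eda2r* at 550.2 in KO replicate 5 at 40 weeks (nearest other 1324), *Gdf15* at 37.9 in KO+AAV replicate 5 at 10 weeks and at 14.3 in KO replicate 4 at 40 weeks, and *Cdkn2a* at 3.14 in KO replicate 5 at 10 weeks and 1.56 in WT replicate 4 at 40 weeks, both a few reads.

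In heart, KO replicate 2 gave *Trp53inp1* at 2614 and *Lmnb1* at 329. In white fat, KO replicate 2 gave *Cdkn1a* at 2663, and KO+AAV replicate 2 gave *Trp53inp1* at 3226 and *Gdf15* at 136. In liver, KO replicate 3 gave *Gdf15* at 262 and KO+AAV replicate 1 gave *Gdf15* at 631 and *Ccng1* at 1797. In lung, KO replicate 1 gave *Cdkn2a* at 49.4 and KO+AAV replicate 3 gave *Eda2r* at 128. The libraries numbered 2 in gastrocnemius at 40 weeks, heart KO and white fat KO also stood apart in summed markers of other cells or states, whose part in these values was not tested.

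The difference between groups changed between 10 and 40 weeks in 5 of 24 tests at *P* under 0.01: KO against WT for *Cdkn1a* (2.04), KO+AAV against KO for *Eda2r* (1.09), and KO+AAV against WT for *Cdkn1a* (2.31), *Eda2r* (1.48) and *Mdm2* (0.68). The *Eda2r* change against KO was kept in only 3 of 9 alternatives and 10 of 23 fits that left out 1 library, and did not pass without the libraries numbered 2 at 40 weeks (0.94). Adjusted over all genes, *Cdkn1a* and *Mdm2* in KO+AAV against WT were under 0.05. *Trp53inp1* in KO+AAV against WT did not pass with all libraries (0.81). It did without the libraries numbered 2 at 40 weeks (0.62, limma unadjusted *P* = 0.00922).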

How the results depend on the processing

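Of 570 values of the 28 calls under alternatives, 528 stayed past the threshold, 42 did not and 0 changed direction. *Mdm2* in KO versus WT at 40 weeks was lost most often. KO versus WT at 40 weeks gave 3 members with its 2 groups fitted alone. KO+AAV versus KO gave 1 at 10 weeks with the replicate block (*Cdkn1a* -0.91, adjusted *P* = 0.176), and at 40 weeks 2 with DESeq2, 1 with edgeR and 0 to 2 with a library left out. KO+AAV versus WT at 10 weeks gave 1, *Trp53* being lost, within either site, with the replicate block, or without KO+AAV replicates 4 and 5. Age in WT gave 0 to 1 with a library left out. The GFP experiment gave 0 with DESeq2 and 0 to 2 with a library left out, *Eda2r* being lost without control replicate 3 or KO+GFP replicate 1. Lung gave 1 with the replicate block (*Ccng1*) and 0 to 1 with a library left out, and liver 1 with DESeq2 and 0 to 1 with a library left out. The differences between ages gave 3 of 5 with Novogene libraries alone. *Trp53* in KO+AAV versus WT at 40 weeks was lost without WT replicate 3 or 4. The cause was not tested. Same-numbered libraries correlated at -0.383 to 0.577 and in no comparison did every pair exceed 0.1. The numbers were therefore not used to pair mice in the main models. In white fat the pairs gave 0.403, 0.48, -0.383 and 0.577. The rule that every pair exceed 0.1 cannot exclude that some same-numbered libraries share a mouse or a batch. *Cdkn2b* in KO versus WT at 40 weeks passed with the replicate block (-1.14, adjusted *P* = 0.0107). Depth limits *Cdkn2a*, *Gdf15* and *Cdkn2b* in gastrocnemius, where counts are few, and intervals there cover few reads.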

Other observations

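The lists around the members were also counted between ages. In KO, 3 of 32 other p53 targets were higher at 40 than at 10 weeks and 2 were lower, beside 5.82% and 6.28% of all genes, including *Bbc3* (1.16) and *Phlda3* (0.69), an inhibitor of AKT signalling, among the higher and *Ak1* (-0.58), an adenylate kinase, among the lower. In KO+AAV, 6 were higher and 2 lower, beside 6.43% and 5.66% of all genes, again with *Bbc3* (1.86), *Phlda3* (1.15) and *Ak1* (-0.57). Without the libraries numbered 2 the counts were 3 and 0 in KO and 4 and 1 in KO+AAV, and *Ak1* did not pass in KO (-0.40). The p53 regulators *Mdm4* (0.54 in KO and 0.93 in KO+AAV) and *Trp63* (0.76 and 1.74) were higher at 40 weeks in both, and in WT 0 of the other p53 targets were called by limma. *Eda*, the ectodysplasin ligand gene, was lower at 40 weeks in KO (-0.95) and KO+AAV (-1.22), while *Nfkb2* was higher in both (0.70 and 1.02). All these comparisons carry the same limit that 40-week gastrocnemius libraries came from 1 site.

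Of 14 genes of the integrated stress response, which *Gdf15* belongs to in many cells, *Psat1*, a serine synthesis enzyme, was higher in KO+AAV than KO at 10 weeks (1.32), and *Trib3* (-1.46) and the mitochondrial enzyme *Shmt2* (-0.28) were lower at 40 weeks. *Psat1* did not pass without KO+AAV replicates 4 and 5 (0.70), nor *Trib3* (-1.20) and *Shmt2* (-0.21) without the libraries numbered 2. In lung, where cardiomyocyte genes were higher in KO+AAV, *Ak1* (1.0) and *Perp* (0.50) were higher and *Plk2* (-0.35) lower among the other p53 targets, and *Trp63* was higher (2.58). Of the same targets 0 were called in heart, liver or white fat by limma.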
